A study of Mus musculus with 4 samples.

Results

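Complement genes were followed across the cell classes of mouse dorsal skin: C1qa, C1qb and C1qc, which encode the 3 chains of C1q, and C3, C4b, Cfb, Cfd, Serping1 and C5ar1. They are 9 of the 31053 genes in the count matrices, taken by name, and all 9 were found. The study profiled single skin cells of BALB/c mice by droplet RNA sequencing (10x Chromium 3′ v3.1) in 4 libraries. One library held skin cells of Cd226-/- mice and one those of wild-type (WT) mice after DMBA/TPA, a schedule in which 25 µg of the carcinogen DMBA was put on the shaved back once and 5 µg of the phorbol ester TPA was applied weekly 3 times from the following week on. In both of these libraries CD45+ (leukocyte) and CD45- cells had been sorted and mixed 1:1. The other 2 libraries came from untreated (naive) mice, one of CD45+ and one of CD45- cells, and each pooled WT and Cd226-/- cells, so the genotypes of naive cells cannot be told apart. Cd226 encodes CD226 (DNAM-1), an activating receptor of T and NK cells. Each library pooled 3 mice and there was 1 library per group, so no animal-to-animal spread could be measured and no difference between groups was tested. Every interval below is an exact 95% interval for counting error only.

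Complement is a cascade of serum proteins that tags and opens target membranes and calls in leukocytes. C1q recognises antibody or altered surfaces and starts the classical pathway through C4 and C2, whereas factor B (Cfb) and factor D (Cfd) drive the alternative pathway, and both converge on cleavage of C3, from which C5 is cleaved in turn. The C1 inhibitor (Serping1) blocks the C1 proteases, and C5ar1 is the receptor for the C5a fragment on phagocytes. The liver supplies most circulating complement, tissue macrophages are the known source of C1q, and fibroblasts are known to make several components locally.

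In the GENCODE vM21 annotation (GRCm38, the mm10 build of the submitters' processing notes), the C1q genes lie side by side on the minus strand of chromosome 4, from 136880129 to 136898803, in the order C1qb, C1qc, C1qa. C4b (chromosome 17, 34728380 to 34743882) and Cfb (chromosome 17, 34856374 to 34862518) are neighbours in the class III region of the major histocompatibility complex. C3 is on chromosome 17, 57203970 to 57228136. The promoters of C1qb and C3 are printed because these genes stood for the macrophage pattern and the fibroblast pattern of the results. Each is the 250 bases before the RefSeq start (GRCm38.p6), 5′ to 3′ on the strand of the gene, with the matched motif in capitals:
C1qb, chr4:136886201-136886450, minus strand: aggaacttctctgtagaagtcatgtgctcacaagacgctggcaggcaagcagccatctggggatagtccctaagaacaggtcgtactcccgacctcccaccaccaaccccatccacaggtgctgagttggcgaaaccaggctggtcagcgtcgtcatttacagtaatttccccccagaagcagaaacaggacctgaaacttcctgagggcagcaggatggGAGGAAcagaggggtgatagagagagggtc
C3, chr17:57228137-57228386, minus strand: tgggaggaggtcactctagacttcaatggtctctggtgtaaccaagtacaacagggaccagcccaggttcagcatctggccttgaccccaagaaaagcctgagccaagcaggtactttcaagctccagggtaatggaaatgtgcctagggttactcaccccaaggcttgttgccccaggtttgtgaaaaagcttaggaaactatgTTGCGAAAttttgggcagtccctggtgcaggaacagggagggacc

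The capitals mark GAGGAA, the purine-rich core read by ETS-family factors such as PU.1 of macrophages, in C1qb (bases 30 to 25 before the start), and TTGCNNAA, the core of C/EBP sites, as TTGCGAAA in C3 (bases 45 to 38). Searched on both strands, GAGGAA occurred in 23.1% and TTGCNNAA in 9.55% of 27025 promoters of the same length. C1qc also held GAGGAA once, on the opposite strand, 193 to 188 bases before its start. TTCNNNGAA (the spacing of STAT sites), TGACTCA (the AP-1 site) and TATAA, found in 7.18%, 4.43% and 23.5% of promoters, were not among the letters of the C1qb, C1qc, C3, Cfd or C5ar1 windows. No 2 of these motifs overlapped in the printed windows. A match is a string of letters, and no binding was measured; the table used holds no entry for C1qa, C4b, Cfb or Serping1.

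After filters 6521 Cd226-/- and 7042 WT cells of the treated mice, 3337 naive CD45+ and 10598 naive CD45- cells were kept, with medians of 6555.5 to 9070.0 unique molecular identifiers (UMIs) per cell, and any pair of libraries shared 6 to 18 cell barcodes. Cells were clustered with all complement genes left out, and clusters were named from fixed markers as "macrophage-like" and so on, with naming limits set after the clusters had been seen. Clusters left without a name held 9.69% of immune and 9.39% of non-immune Cd226-/- cells, 14.1% and 8.93% of WT cells, 3.18% of naive CD45+ immune and 0.133% of naive CD45- non-immune cells. Cd226 itself had 125 UMIs in the Cd226-/- library and 216 in the WT library. In lymphocyte-like cells it had 33 UMIs over 616 Cd226-/- cells, against 78 over 379 WT cells. The labels do not give the deleted part of the gene, so a 3′ tag does not check the genotype. A level is given as UMIs of the gene per 1000000 UMIs of all genes in the class (CPM); levels are set side by side between classes and libraries and not between genes. Immune classes of treated skin are set against the naive CD45+ library and non-immune classes against the naive CD45- library.

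C1q transcripts sat in macrophage-like cells and C3 and Serping1 transcripts mainly in fibroblast-like cells, in all 4 libraries as far as each held them. C4b and Cfb transcripts sat mainly in fibroblast-like cells of the Cd226-/-, WT and naive CD45- libraries. In the naive CD45+ library macrophage-like cells held 7157 UMIs of C4b and 812 of Cfb, more than its 149 fibroblast-like cells did. Macrophage-like cells held 72.7% of the C1qa UMIs of the Cd226-/- library with 6.62% of its cells, 63.2% of the WT library with 5.81% of its cells, and 93.9% of the naive CD45+ library with 43.5% of its cells. Fibroblast-like cells held 92.9% of C3, 91.7% of C4b, 89.3% of Cfb and 96.4% of Serping1 UMIs in the Cd226-/- library, and 95.8%, 93.2%, 90.3% and 96.2% in the WT library. C5ar1 was divided among phagocytes. Cells between macrophages and monocytes by their markers ("intermediate" below) held 32.5% of its UMIs in the Cd226-/- library, macrophage-like cells 26.6% and neutrophil-like cells 15.3%, against 11.7%, 36.3% and 20.03% in the WT library. Such shares follow the mix of cells as well as the level per cell: after the 1:1 sort mix, immune cells made up 50.01% of the kept Cd226-/- cells and 27.2% of the kept WT cells. Levels per class do not carry the share of cells in each class, and they are used from here on. They can still carry RNA from cells of other classes and the mix of clusters within a class.

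**Figure D1:**
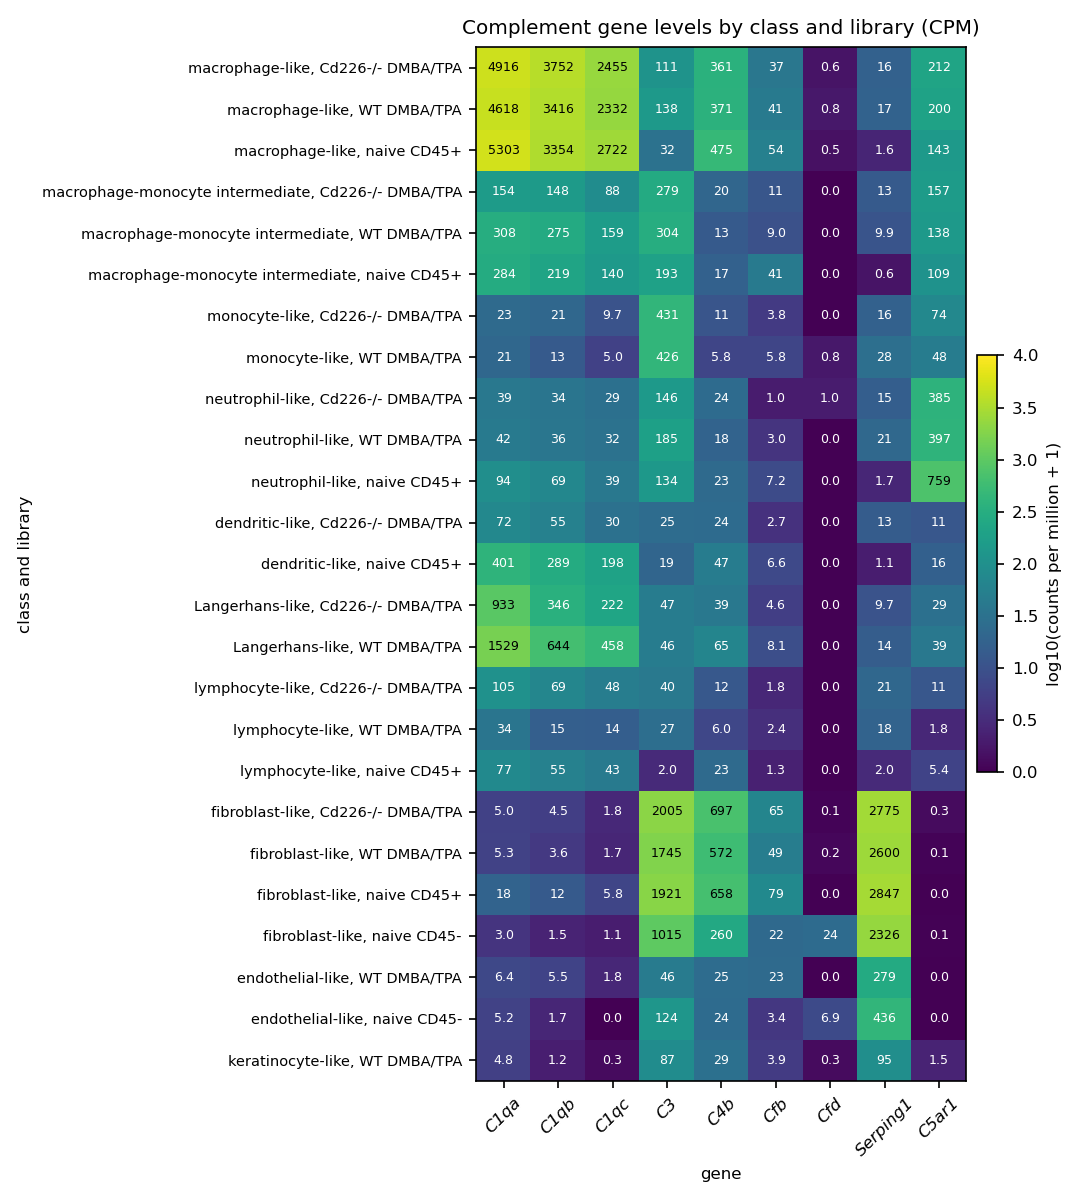
Level of each complement gene (columns) in each class and library with at least 100 cells (rows), printed in CPM and coloured by log10(CPM + 1). The C1q columns are brightest in macrophage-like rows (2332 to 5303 CPM), the C3 and Serping1 columns in fibroblast-like rows, and the C5ar1 column in neutrophil-like rows.

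C1qa, the A chain, was highest in macrophage-like cells, at 4916 CPM (4839.8 to 4993) in Cd226-/-, 4618 CPM (4532 to 4705) in WT and 5303 CPM (5266 to 5339.5) in naive skin. C1qb, the B chain, had 3752, 3416 and 3354 CPM in the same order of libraries. C1qc, the C chain, had 2455, 2332 and 2722 CPM. The 3 libraries lay close together for each chain, and no other class came near these levels. All 3 chains were found together in 78.7% of macrophage-like cells in Cd226-/-, 76.8% in WT and 88.6% in naive skin, against 1.14%, 0.792% and 2.56% of lymphocyte-like cells, which should lack C1q. The lymphocyte-like cells were shallower, with a median of 3530.5 UMIs in Cd226-/-, 3430.0 in WT and 5729.5 in naive cells, against 5919.5, 4776.0 and 9239.5 in macrophage-like cells. A UMI of C1qa, with or without the other chains, was found in 81.7%, 80.0% and 92.4% of macrophage-like and 6.66%, 5.54% and 25.2% of lymphocyte-like cells. After thinning each cell to 1000 UMIs, these shares were 77.1%, 74.8% and 86.0% of macrophage-like and 2.52%, 2.25% and 5.93% of lymphocyte-like cells. The classes stayed far apart at equal depth. A further 78 macrophage-like cells lay in the naive CD45- library, 78.2% of them with a UMI of Ptprc, which encodes CD45, against 88.4% of the naive CD45+ macrophage-like cells. They had 8392 CPM (8116 to 8676) of C1qa and 1351 CPM (1241 to 1467) of C4b.

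**Figure D2:**
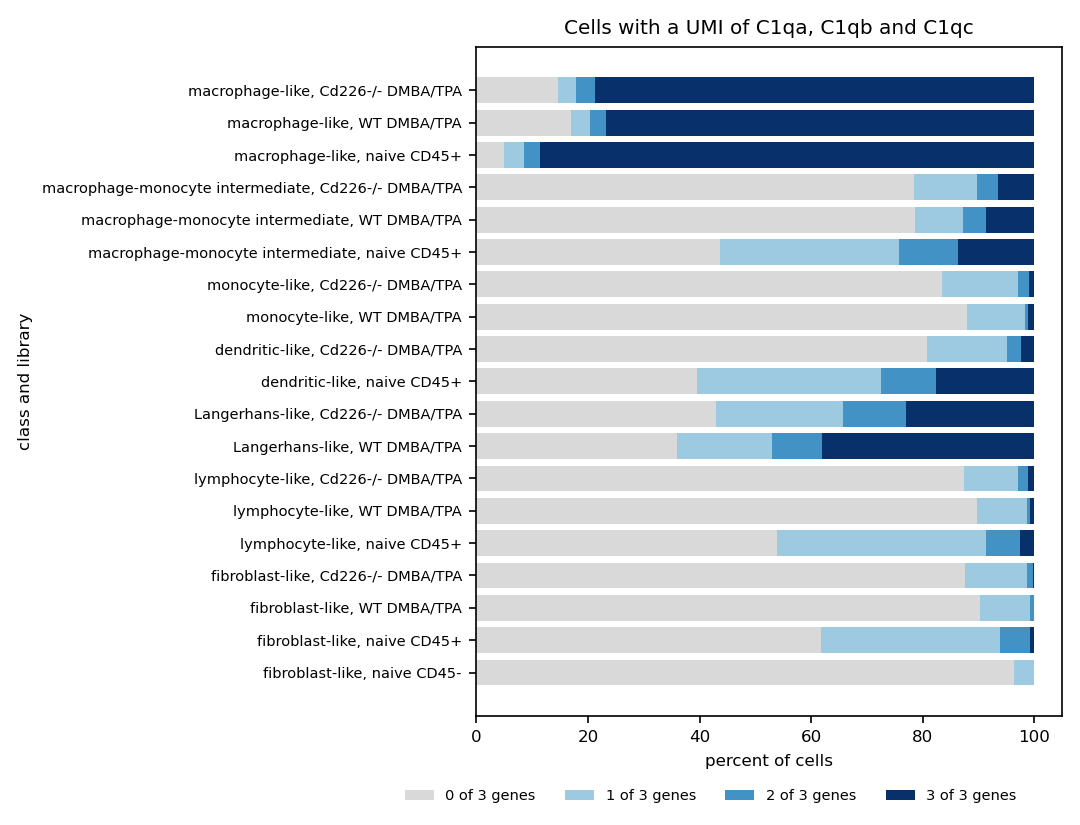
Share of cells (percent, horizontal axis) with a UMI of none, 1, 2 or all 3 of C1qa, C1qb and C1qc, for each class and library, without thinning. All 3 genes occur together in 76.8% to 88.6% of macrophage-like cells and in 23.0% and 38.0% of Langerhans-like cells, and cells with all 3 are rare in lymphocyte-like and fibroblast-like rows.

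The next C1q level after macrophage-like cells was in Langerhans-like cells of treated skin, a cluster led by Ccl22, Ccr7 and H2-M2, genes of migrating antigen-presenting cells, together with the fixed markers Mfge8 and Cd207. They had 933 CPM (901 to 966) of C1qa in Cd226-/- and 1529 CPM (1481 to 1579) in WT skin, and only 34 such cells were present in the naive CD45+ library. Of all C1q UMIs in these cells, C1qa made up 62.1% in Cd226-/- and 58.1% in WT cells, against 44.2% in Cd226-/-, 44.6% in WT and 46.6% in naive macrophage-like cells. C1qa thus took a larger share of C1q in Langerhans-like cells than in macrophage-like cells of the same libraries. The name of this class is not sharp, since Ccr7 is on the fixed dendritic-like marker list. At a Leiden resolution of 2.0, 14.1% of the Cd226-/- and 18.4% of the WT Langerhans-like cells were named macrophage-like. These held 16.2% and 25.0% of the C1qa UMIs of the class. Intermediate cells had 154 CPM (143 to 165) of C1qa in Cd226-/-, 308 CPM (276 to 342) in WT and 284 CPM (269 to 299.7) in naive skin. Dendritic-like cells had 71.9 CPM (60.2 to 85.1) in Cd226-/- and 401 CPM (383 to 419.6) in naive skin. In every other named immune class with at least 100 cells C1qa was at 105 CPM or less, and neighbours among them, such as Cd226-/- lymphocyte-like (105 CPM (93.8 to 118)) and naive neutrophil-like cells (94.4 CPM (80.7 to 109.7)), had overlapping intervals.

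Fibroblast-like cells held little C1q. C1qa was at 4.95 CPM in those of Cd226-/- skin, 5.26 CPM in those of WT skin and 2.97 CPM in those of the naive CD45- library. From 6 macrophage markers (Adgre1, Mrc1, Pf4, Ms4a7, Fcgr1 and Cbr2), macrophage RNA came to 0.124%, 0.0973% and 0.0530% of the RNA in these cells, an amount that carries 6.11, 4.49 and 4.45 CPM of C1qa with it. The C1qa found was below that amount in Cd226-/- and naive cells and above it in WT cells, so no expression of C1q by fibroblast-like cells is read from it. The choice of these 6 from the macrophage marker list was made after the levels of the list had been seen.

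C3, the protein on which the pathways converge, was highest in fibroblast-like cells, at 2005 CPM (1990.5 to 2019) in Cd226-/-, 1745 CPM (1732 to 1757) in WT and 1015 CPM (1007 to 1022) in naive CD45- cells. The 149 fibroblast-like cells that were in the naive CD45+ library had 1921 CPM, close to the treated cells and unlike the naive CD45- cells. Monocyte-like cells came next, at 431 CPM (405 to 459) in Cd226-/- and 426 CPM (389 to 464) in WT skin, and 70 naive ones had 356 CPM. Intermediate cells had 279, 304 and 193 CPM and neutrophil-like cells 146, 185 and 134 CPM in Cd226-/-, WT and naive skin. C3 in phagocytes therefore ran against C1q: it was higher in monocyte-like and intermediate cells than in the C1q-rich macrophage-like cells (111, 138 and 31.6 CPM).

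C4b, the C4 component of the classical pathway, had 2 sources. Fibroblast-like cells had 697 CPM (689 to 706) in Cd226-/-, 572 CPM (565 to 579) in WT and 259.9 CPM (256 to 264) in naive CD45- cells. Macrophage-like cells had 361 CPM (340.3 to 382) in Cd226-/-, 371 CPM (346 to 396) in WT and 475 CPM (464 to 486) in naive CD45+ cells. All other named classes with at least 100 cells were at 65.3 CPM or below. C4a, a near-identical neighbour of C4b, is not among the genes counted, so reads of the pair cannot be told apart and the C4b level is uncertain to that extent.

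Cfb, the protease subunit of the alternative-pathway convertase, had 64.6 CPM (62.1 to 67.2) in Cd226-/-, 49.0 CPM (47.0 to 51.1) in WT and 22.3 CPM (21.3 to 23.5) in naive CD45- fibroblast-like cells. In macrophage-like cells it had 37.0 CPM (30.7 to 44.3), 41.3 CPM (33.5 to 50.3) and 53.9 CPM (50.3 to 57.8) in Cd226-/-, WT and naive skin. In Cd226-/- skin the fibroblast-like cells were higher, in WT skin the intervals of the 2 classes overlapped, and in naive skin the order depended on the sort: macrophage-like cells were above the fibroblast-like cells of the CD45- library, but below the 149 fibroblast-like cells of their own CD45+ library, which had 79.0 CPM (67.8 to 91.5). Exons of Gm20547, annotated on the same strand, cover 79.5% of the exonic bases of Cfb, and a read in the shared part cannot be assigned, so Cfb may be undercounted; Gm20547 had 1 UMI over all classes with at least 100 cells.

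Cfd encodes factor D, the adipsin of fat cells, and was all but missing from the skin cells captured. It had 3 UMIs in 2808 fibroblast-like cells of Cd226-/- skin and 8 UMIs in 4102 of WT skin, against 1689 UMIs in 10161 naive CD45- cells. Of these naive UMIs, 1666 lay in 4 cells, with 844, 557, 220 and 45 UMIs each, that is 98.4% of the Cfd of that library. The same 4 cells held 47, 34, 23 and 8 UMIs of Adipoq, the fat-cell hormone adiponectin. Without them the naive fibroblast-like level was 0.324 CPM (0.206 to 0.487), against 0.0790 CPM (0.0163 to 0.231) in Cd226-/- and 0.175 CPM (0.0754 to 0.344) in WT cells. In the naive CD45+ library the 8 Cfd UMIs were all in macrophage-like cells, 4 of them in 1 cell.

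Serping1, the C1 inhibitor, was found in 99.2% of fibroblast-like cells of Cd226-/- skin, 99.2% of those of WT skin and 99.0% of those in the naive CD45- library, against 9.09% of Cd226-/- and 7.12% of WT lymphocyte-like cells. The median depth of the fibroblast-like cells was 12644.5, 10153.0 and 6628.0 UMIs, and thinned to 1000 UMIs the shares with Serping1 were 87.1%, 88.1% and 83.7% in fibroblast-like cells and 2.52% and 2.18% in Cd226-/- and WT lymphocyte-like cells. Its level was 2775 CPM (2758 to 2792) in Cd226-/-, 2599.9 CPM (2585 to 2615) in WT and 2326 CPM (2315 to 2337) in naive CD45- fibroblast-like cells, the smallest spread between libraries of the fibroblast members. Endothelial-like cells had 279 CPM (249 to 312) in WT and 436 CPM (384 to 493) in naive skin. Named immune classes with at least 100 cells had between 0.643 and 28.4 CPM.

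C5ar1, the C5a receptor, was highest in neutrophil-like cells, at 385 CPM (348 to 425) in Cd226-/-, 397 CPM (350.1 to 448) in WT and 759 CPM (719 to 800.2) in naive skin. Macrophage-like cells followed with 212 CPM (196 to 228), 200.4 CPM (183 to 219) and 143 CPM (137 to 149), then intermediate cells with 157, 138 and 109 CPM, and then monocyte-like cells with 73.6 CPM in Cd226-/- and 47.6 CPM in WT skin. This order held in the Cd226-/-, WT and naive CD45+ libraries, and the intervals of these 4 neighbours did not overlap in Cd226-/- and WT skin. Fibroblast-like cells had 11, 5 and 4 UMIs in Cd226-/-, WT and naive CD45- skin. In these libraries C5ar1 and C3 were thus highest in different classes, although neutrophil-like, intermediate and monocyte-like cells had UMIs of both.

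Treated skin was set against naive skin to ask how complement genes differ after DMBA/TPA; both ratios use the same naive library, so they share its error. In macrophage-like cells, C3 was higher after DMBA/TPA: 111 CPM in Cd226-/- and 138 CPM in WT cells, against 31.6 CPM in naive cells, ratios of 3.52 (3.06 to 4.04) and 4.37 (3.78 to 5.04). C1qa, C1qb and C1qc had ratios of 0.927, 1.12 and 0.902 in Cd226-/- and 0.871, 1.02 and 0.856 in WT cells. C4b was at 0.759 and 0.780, Cfb at 0.687 and 0.765, and C5ar1 at 1.49 and 1.41 of the naive level in Cd226-/- and WT cells. Of the 8 members with at least 50 UMIs, 2 were at least 1.5-fold higher in each treated library, beside 10.2% of all genes in Cd226-/- and 9.1% in WT cells, and 0 were at least 1.5-fold lower, beside 17.8% and 18.0%. The other gene that passed was Serping1, with 16.5 and 17.3 CPM in Cd226-/- and WT cells, against 1.59 CPM in naive cells, ratios of 10.4 (6.28 to 17.5) and 10.8 (6.39 to 18.7). The lower side depended on which cells were called macrophage-like: with clusters at a Leiden resolution of 2.0 the class took in 732 instead of 432 Cd226-/- cells, and C1qa (0.602), C1qc (0.586), C4b (0.524) and Cfb (0.507) were then at least 1.5-fold lower in Cd226-/- than in naive cells, and Cfb (0.637) in WT cells. C3 stayed at least 3.17-fold above naive cells in each treated library under the 4 other clusterings and filters run.

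Fibroblast RNA moved with both values: all 6 fibroblast markers were found in macrophage-like cells of each library, and they summed to 317 CPM in Cd226-/- and 581 CPM in WT cells, against 75.2 CPM in naive cells. Scaled by the same markers in fibroblast-like cells, that RNA came to 0.613% of the RNA in Cd226-/- and 0.874% in WT macrophage-like cells, against 0.0975% in naive cells. By this estimate that amount carries 17.0, 22.7 and 2.78 CPM of Serping1, as much as was found or more. It carries 12.3, 15.3 and 1.87 CPM of C3, under what was found. An estimate above the level found is not exact, and the part of fibroblast RNA in the C3 and Serping1 values was not tested. The treated and naive macrophage-like cells also lay in different clusters. Cluster 7 (Cd163, Ccl8, Folr2) held 60.4% of the Cd226-/- and 48.4% of the WT cells, and cluster 22 (Ccl8, Folr2, Stab1) held 61.5% and cluster 19 (Trem2, Apoe) 35.1% of the naive cells. C3 was at 91.5 CPM in Cd226-/- and 91.9 CPM in WT cells of cluster 7, against 24.8 CPM in naive cells of cluster 22 and 42.9 CPM in those of cluster 19. C1qa and C4b were high in clusters 7 and 22 and lower in cluster 19, at 2920.0 CPM of C1qa and 47.5 CPM of C4b in naive cells, against 6698 and 717 CPM in cluster 22.

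In fibroblast-like cells, C3, C4b and Cfb were higher after DMBA/TPA in both genotypes than in the naive CD45- library. C3 stood at 1.98 (1.96 to 2.00) times the naive level in Cd226-/- and 1.72 (1.70 to 1.74) times in WT cells. C4b stood at 2.68 (2.63 to 2.73) and 2.201 (2.16 to 2.24) times, and Cfb at 2.89 (2.71 to 3.08) and 2.19 (2.06 to 2.34) times. The 149 fibroblast-like cells of the naive CD45+ library did not share this gap: they had 1921 CPM of C3, 658 CPM of C4b and 79.0 CPM of Cfb, each above the WT level, and for Cfb above the Cd226-/- level too. These differences from naive skin thus hold against the CD45- library and not against those cells of the CD45+ library. Serping1 did not reach 1.5-fold, at 1.19 in Cd226-/- and 1.12 in WT cells. Of 8 members measured, 6 were at least 1.5-fold higher in each genotype, beside 24.4% of all genes in Cd226-/- and 20.4% in WT cells, and 1 was lower, beside 13.9% and 11.8%. The median log2 ratio of the 8 was 0.86 in Cd226-/- and 0.80 in WT cells, beside 0.19 and 0.19 over all genes. Among the 6 are the C1q chains, with ratios of 1.55 to 2.96, whose levels stood near those of the macrophage RNA given above. The lower gene was Cfd, whose naive level lay in the 4 cells described. Without them its ratio was 0.244 (0.0468 to 0.806) in Cd226-/- and 0.538 (0.208 to 1.25) in WT cells. These ratios rest on 3 and 8 UMIs, against 23 in naive cells, under the minimum of 50. A trimmed-mean (TMM) scaling of the class sums moves every fibroblast ratio down by 0.24 (Cd226-/-) and 0.23 (WT) on the log2 scale, after which C3 was at 1.68 and 1.47, just under 1.5-fold in WT.

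**Figure D3:**
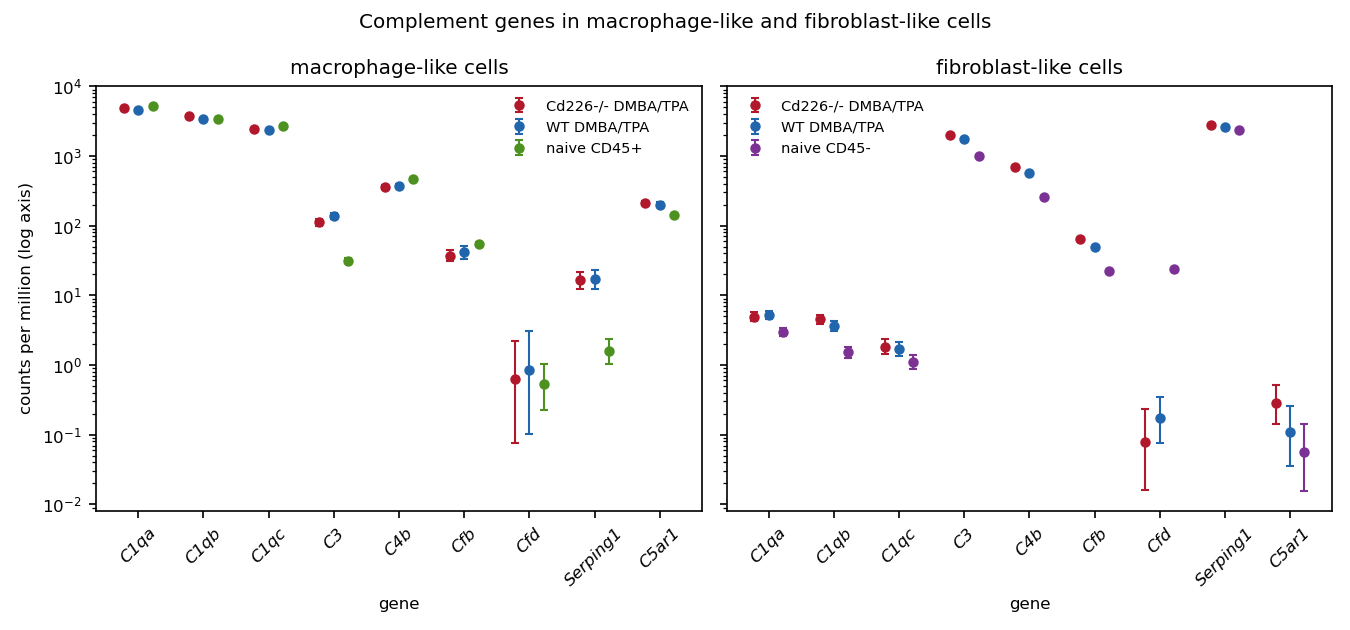
Level of each complement gene (CPM, log axis) in macrophage-like (left) and fibroblast-like (right) cells of Cd226-/- and WT mice after DMBA/TPA and of naive mice (macrophage-like from the CD45+ and fibroblast-like from the CD45- library); bars are exact 95% counting intervals and 1 point is 1 library. The treated points lie above the naive point for C3 in both classes and for C4b and Cfb in fibroblast-like cells, and the 3 points lie close together for the C1q genes in macrophage-like cells.

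The class as a whole hides a wide range among fibroblast clusters. C3 was highest in cluster 105 (Mrgprg, Pi16, Mfap5) of treated skin, at 3924 CPM in Cd226-/- and 4615 CPM in WT cells, and in cluster 120 (Mfap5, Ogn, Pi16) among naive clusters of over 100 cells, at 2702 CPM. Pi16 marks a fibroblast population of the fascia and of vessel surrounds, and cluster 120 held 26.8% of naive fibroblast-like cells. Naive clusters 119 and 122, led by Col1a1 and Col1a2, had 49.8 and 66.4 CPM of C3 and 1.30 and 1.84 CPM of Cfb. C4b had another order, with its highest values in cluster 109 (Gsn, Inmt), at 1796 CPM in WT and 1763 CPM in naive cells, and in cluster 102 (Mmp3, Prg4, Il33) of treated skin, at 1380.2 CPM in Cd226-/- and 1087 CPM in WT cells. Serping1 varied less, from 609.8 to 4691 CPM over clusters and libraries with at least 50 cells. Few clusters held treated and naive cells together: in cluster 110 (Cilp, Myoc) C3 was at 1046 CPM in Cd226-/- and 1640.3 CPM in WT cells, against 610.2 CPM in naive cells, and in cluster 109 at 2942 CPM in WT against 2446 CPM in naive cells. In cluster 112 it was at 206 CPM in WT against 83.3 CPM in naive cells, on 78 and 25 UMIs. The WT-to-naive ratio of C3 was 2.69 (2.43 to 2.97) in cluster 110, 2.48 (1.56 to 4.06) in cluster 112 and 1.20 (1.15 to 1.25) in cluster 109, so its size differed between clusters; the share of the class difference that lies in the mix of clusters was not tested.

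**Figure D4:**
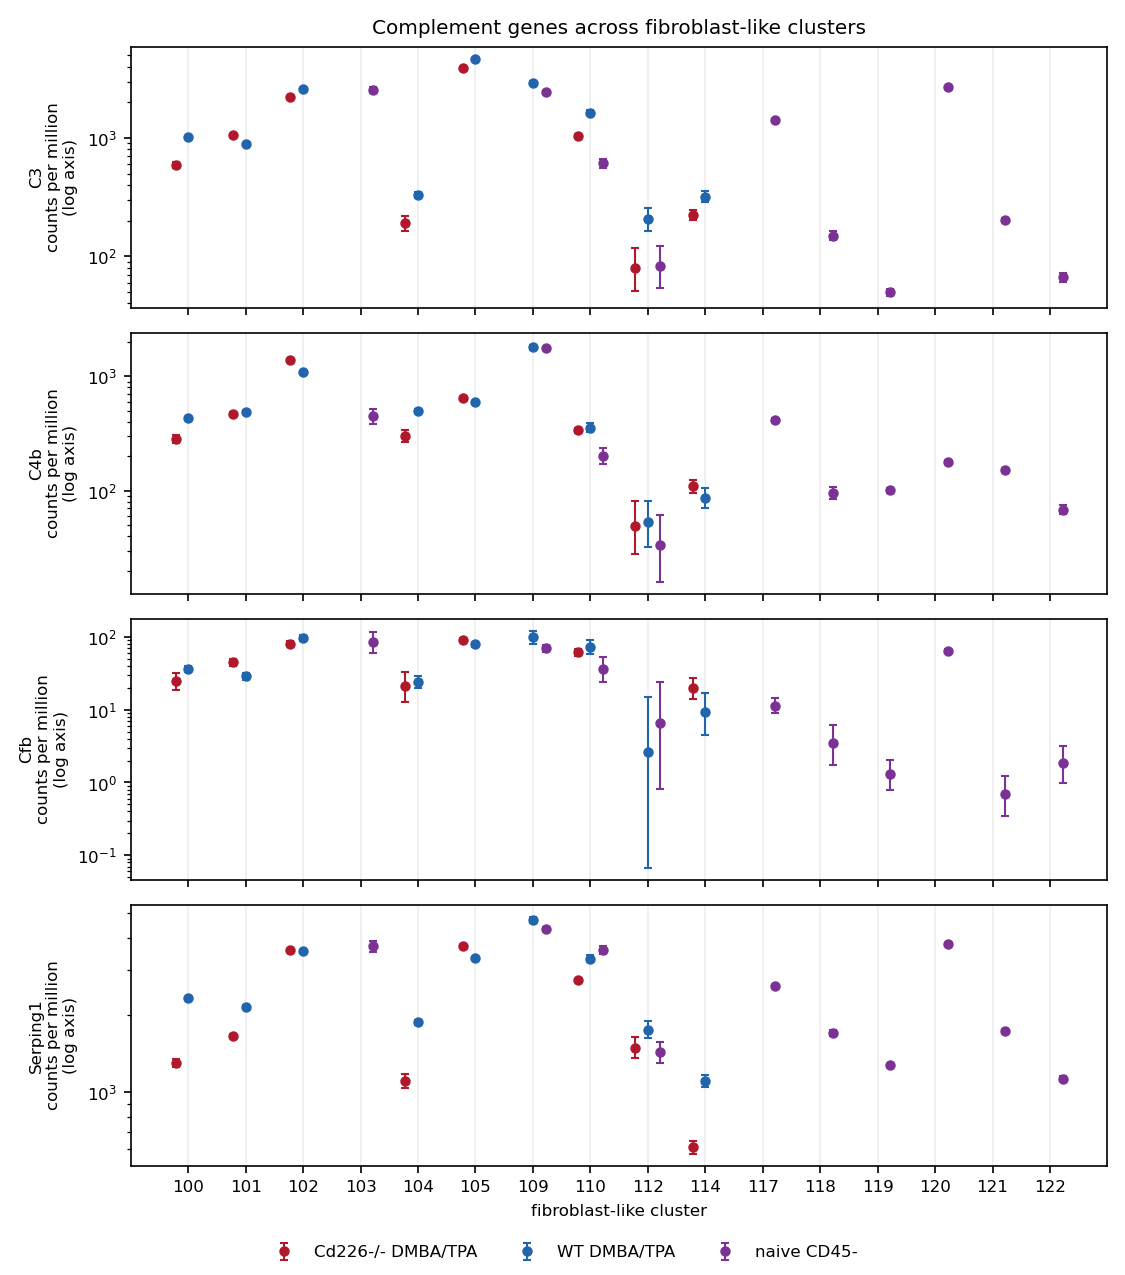
Levels of C3, C4b, Cfb and Serping1 (CPM, log axes) in each fibroblast-like cluster with at least 50 cells of a library; 1 point is 1 library, bars are exact 95% counting intervals, and a level of 0 is not drawn. C3 runs from 49.8 CPM in naive cluster 119 to 4615 CPM in WT cluster 105, and most clusters hold treated or naive cells but not both.

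Other classes differed between treated and naive skin as well. C5ar1 of neutrophil-like cells was lower after DMBA/TPA, at 385 CPM in Cd226-/- and 397 CPM in WT cells, against 759 CPM in naive cells, with ratios of 0.508 (0.452 to 0.568) and 0.523 (0.456 to 0.597). Of 6 members measured, 3 were past 1.5-fold in each genotype, in a class where 47.2% of all genes in Cd226-/- and 44.8% in WT cells were past 1.5-fold and the median gene stood at a log2 ratio of -0.44 and -0.36, so the count is near that of the class. Cfb of intermediate cells was at 10.8 CPM in Cd226-/- and 8.98 CPM in WT cells, against 41.4 CPM in naive cells, ratios of 0.260 (0.190 to 0.351) and 0.217 (0.102 to 0.408). In Cd226-/- cells 3 of 8 members measured were lower (Cfb, C1qa and C1qc), and in WT cells 1 of 7 (Cfb), beside 14.0% and 18.0% of all genes. One member was higher in each: Serping1 in Cd226-/- cells, with 67 UMIs (12.6 CPM) against 3 UMIs (0.643 CPM) in naive cells, and C3 in WT cells, at 1.57 (1.39 to 1.79), beside 10.3% and 8.31% of all genes. By the marker estimate, fibroblast RNA in these cells carries 15.2 CPM of Serping1 in Cd226-/- and 1.68 CPM in naive cells, more than was found. Its part in the Serping1 values was not tested. The treated intermediate cells lay in cluster 5 (98.1% of Cd226-/- and 91.3% of WT cells) and the naive ones in cluster 8 (88.4%), which is led by interferon-induced genes (Ifi44, Rsad2, Mx1). In dendritic-like cells of Cd226-/- skin, C1qa, C1qb and C1qc had 71.9, 55.2 and 30.04 CPM, against 401, 289 and 198 CPM in naive cells, and 4 of 6 members were at least 1.5-fold lower, beside 15.8% of all genes. The 8 macrophage markers summed to 666 CPM in these Cd226-/- cells and 1219 CPM in naive ones; their part in the C1q values was not tested. WT skin had 91 such cells and was not compared. In endothelial-like cells of WT skin, C3 and Serping1 stood at 0.368 (0.251 to 0.535) and 0.641 (0.541 to 0.760) times the naive level, 2 of 2 members measured lower, beside 11.6% of all genes; without the richest cell of each library the C3 ratio was 0.503.

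The Cd226-/- and WT libraries were then compared after DMBA/TPA, the comparison that the 2 genotypes imply. In macrophage-like cells 0 of 8 complement genes measured were past 1.5-fold either way, beside 8.64% of all genes. The ratios were 1.06 (1.04 to 1.09) for C1qa, 1.10 (1.07 to 1.13) for C1qb and 1.05 (1.02 to 1.09) for C1qc. C3 had the ratio furthest from 1, at 0.805 (0.691 to 0.938), and C4b stood at 0.974 (0.891 to 1.06). Cfb stood at 0.898 (0.681 to 1.19), Serping1 at 0.956 (0.624 to 1.47) and C5ar1 at 1.06 (0.939 to 1.19). These intervals exclude a 1.5-fold difference between the 2 libraries for all 8 genes but Serping1 on its low side, and they say nothing of the spread between mice. The small C1qa difference had no fixed side: its ratio was 0.761 at a Leiden resolution of 2.0, 0.898 with complement genes kept for clustering and 0.751 with looser cell filters. With the libraries clustered one by one, C3 (0.412) and Serping1 (0.0372) were lower, and the 6 fibroblast markers then summed to 310.5 CPM in Cd226-/- and 11112 CPM in WT macrophage-like cells.

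Within the class, cluster 7 had C1q ratios of 1.00 (0.975 to 1.03) for C1qa, 1.05 (1.02 to 1.09) for C1qb and 0.985 (0.947 to 1.02) for C1qc. In cluster 0 (Lyz1, Fcgr4, Ccl9), which held 74 Cd226-/- and 104 WT cells, C1qa was at 1665 CPM in Cd226-/- and 2974 CPM in WT cells. There the 3 C1q genes had ratios of 0.560 (0.507 to 0.617), 0.505 (0.453 to 0.562) and 0.569 (0.498 to 0.651), in a cluster where 4.59% of all genes were at least 1.5-fold lower. Intermediate cells went the same way: C1qa was at 154 CPM in Cd226-/- and 308 CPM in WT cells, and the ratios were 0.499 (0.439 to 0.567), 0.540 (0.473 to 0.619) and 0.556 (0.466 to 0.664) for C1qa, C1qb and C1qc. Of 8 members measured there, these 3 were lower, beside 4.13% of all genes, and C4b was higher at 1.58 (0.899 to 2.98), beside 8.59%, on 105 and 14 UMIs. The 8 macrophage markers summed to 4699 CPM in Cd226-/- and 4064 CPM in WT intermediate cells. Of these markers 2 were at least 1.5-fold higher in Cd226-/- cells, 0 at least 1.5-fold lower, and 1 was below the WT level. Their part in the C1q difference was not tested. With clusters at a Leiden resolution of 2.0 the C1q ratios were 0.685, 0.698 and 0.706, under 1.5-fold. With complement genes kept for clustering they were 0.527, 0.580 and 0.682, and with looser cell filters 0.446, 0.466 and 0.440. With the libraries clustered one by one no such class was found in both. Few cells carried this C1q: all 3 genes were found together in 6.56% of Cd226-/- and 8.67% of WT intermediate cells.

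Langerhans-like cells also had less C1q in Cd226-/- skin, with C1qb at 346 CPM (327 to 366) in Cd226-/- and 644 CPM (613 to 677) in WT cells. The ratios were 0.610 (0.582 to 0.640) for C1qa, 0.538 (0.498 to 0.580) for C1qb and 0.485 (0.442 to 0.532) for C1qc, with C4b at 0.599 (0.474 to 0.757). Together 4 of 7 members measured were at least 1.5-fold lower, beside 6.55% of all genes. All 3 C1q genes were found in 23.0% of 326 Cd226-/- cells and 38.0% of 234 WT cells, at median depths of 9642.0 and 9439.5 UMIs. Macrophage markers moved with it: all 8 were lower in the Cd226-/- cells, 3 of them at least 1.5-fold, and they summed to 1228 CPM in Cd226-/- and 1784 CPM in WT cells; their part in the C1q difference was not tested. At a Leiden resolution of 2.0 the C1q ratios were 0.647, 0.608 and 0.549. They were 0.632, 0.555 and 0.507 with complement genes kept for clustering, and 0.613, 0.547 and 0.501 with looser cell filters. Clustered one by one, the libraries gave 100 Langerhans-like cells in Cd226-/- and 228 in WT skin. The ratios were then 1.34, 1.06 and 0.900, so the direction of C1qa and C1qb turned with that clustering. Lymphocyte-like cells went the other way, with C1qa at 105 CPM in Cd226-/- and 34.4 CPM in WT cells and C1q ratios of 3.07 to 4.56. Of 5 members measured there 3 were higher, beside 12.6% of all genes; 100 of the 296 C1qa UMIs in Cd226-/- cells lay in 1 cell, all 8 macrophage markers were also at least 1.5-fold higher, summing to 502 CPM in Cd226-/- and 89.9 CPM in WT cells, and 87.5% of Cd226-/- and 89.7% of WT cells had no C1q UMI. In monocyte-like cells C5ar1 was at 1.55 (1.14 to 2.12) and Serping1 at 0.578 (0.355 to 0.944), and with C1qb (49 and 15 UMIs) 2 of 5 members were higher and 1 lower, beside 5.26% and 3.17% of all genes. Serping1 was at 16.4 and 28.4 CPM in Cd226-/- and WT monocyte-like cells, where fibroblast RNA by the marker estimate carries 15.9 and 18.8 CPM. Its part in the Serping1 values was not tested. In neutrophil-like cells 0 of 5 members were past 1.5-fold, beside 15.6% of all genes. When macrophage-like, intermediate and monocyte-like cells were merged, an alternative added after the clusters had been seen, C1qa, C1qb, C1qc and C4b stood at 0.633, 0.658, 0.630 and 0.616: 4 of 8 were lower, beside 5.72% of all genes. The Cd226-/- library had 732 intermediate cells and 432 macrophage-like cells, and the WT library 173 and 409, so the merged ratio carries that mix.

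In fibroblast-like cells taken whole, 0 of 7 members measured were past 1.5-fold, beside 12.0% of all genes. C3 stood at 1.15 (1.14 to 1.16), C4b at 1.22 (1.20 to 1.24), Cfb at 1.32 (1.24 to 1.40) and Serping1 at 1.07 (1.06 to 1.08), each a little higher in Cd226-/- cells. The picture was different inside clusters. In cluster 105, C3 was at 3924 CPM in Cd226-/- and 4615 CPM in WT cells, in cluster 100 (Postn, Dpt) at 592 and 1009.9 CPM, and in cluster 104 (Grem1, Tnc) at 190.1 and 330.5 CPM. C3 was below WT in 7 of 8 clusters measured, and at least 1.5-fold lower in 4 of them, with cluster ratios of 0.385 to 1.19. The exception was cluster 101 (Ptx3, Tnfaip6), at 1.19 (1.16 to 1.23). Serping1 was at least 1.5-fold lower in 3 of 8 clusters (0.551 to 1.12) and C4b in 2 of 7 (0.604 to 1.27), whereas Cfb was at least 1.5-fold higher in 1 of 6 (0.686 to 1.56). Of all genes, 10.2%, 10.7%, 9.05% and 6.35% were at least 1.5-fold lower in clusters 100, 104, 110 and 112, where C3 was, and 11.2% in cluster 114, where Serping1 was lower as it was in clusters 100 and 104. In cluster 101, where Cfb was higher, 7.69% of all genes were. The cluster mix moved with this: cluster 105 held 31.7% of Cd226-/- and 22.5% of WT fibroblast-like cells, cluster 102 28.0% and 13.8%, cluster 110 14.3% and 3.44%, cluster 100 4.52% and 26.2%, and cluster 104 2.10% and 9.46%. The Cd226-/- clusters were also weighted by the WT proportions, a calculation added after the clusters had been seen. It used the 8 clusters with at least 50 cells in both libraries and left out cluster 109, with 5.02% of the WT cells. The ratios were 0.835 for C3, 0.953 for C4b, 0.999 for Cfb and 0.817 for Serping1. For C3, C4b and Serping1 the side of 1 on which the ratio fell thus changed with the weighting. Cfb came to the WT level, and none of these genes passed 1.5-fold either way.

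**Figure D5:**
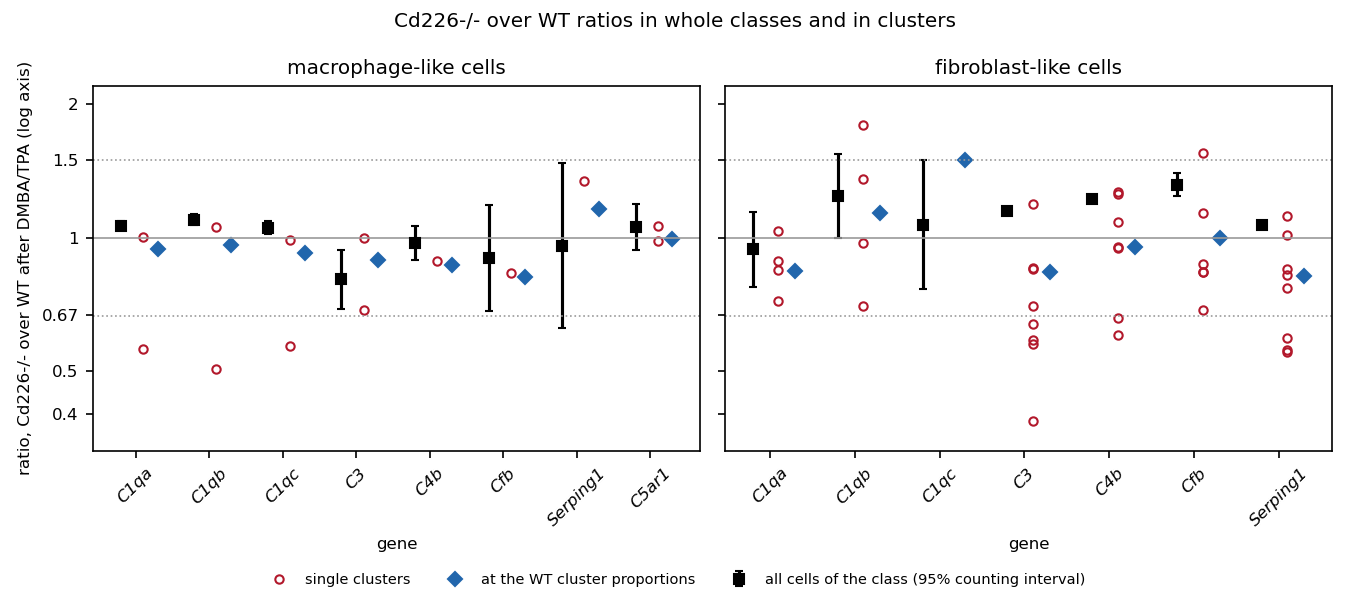
Ratio of Cd226-/- over WT after DMBA/TPA (log axis) for each complement gene in macrophage-like (left) and fibroblast-like (right) cells: squares with exact 95% counting intervals for the whole class, circles for single clusters, and diamonds for clusters weighted by the WT proportions; dotted lines mark 1.5-fold. Squares stay within the dotted lines, and most C3 circles of fibroblast-like cells lie below 1 (0.385 to 1.19).

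A list of 43 other complement genes found in the matrices puts the members in the frame of their pathways. In fibroblast-like cells of Cd226-/- skin, 24 of them were measured against naive cells, 12 were at least 1.5-fold higher and 5 lower, beside 24.4% and 13.9% of all genes, with a median log2 ratio of 0.61 beside 0.19 over all genes. In WT skin 9 of 22 were higher and 4 lower, beside 20.4% and 11.8%, with a median of 0.37 beside 0.19. Masp1, a protease of the lectin pathway, stood at 5.34 (4.85 to 5.89) in Cd226-/- and 7.202 (6.57 to 7.90) in WT cells. C1s1 and C1s2, which encode the C1s protease of the classical pathway, stood at 2.47 and 2.31 in WT cells, and C6, of the membrane attack complex, at 2.56. Clu, the complement-binding chaperone clusterin, stood at 4.76 in Cd226-/- cells; Hc, which encodes C5, and Itgam, a chain of the complement receptor CR3, were also among the 5 largest there, on 62 and 44 UMIs in Cd226-/- cells, against 7 and 8 in naive cells. Lower in both genotypes were Cd59a (0.466 in Cd226-/- and 0.354 in WT), Cd59b (0.428 and 0.415), which shield cells from the membrane attack complex, C8g, a chain of C8 (0.389 and 0.129), and Masp2, a lectin-pathway protease (0.631 and 0.458). Cd55, a decay accelerator of the C3 convertases, was lower in Cd226-/- cells (0.569). C1s1 and C1s2, like C1ra and C1rb and the Cd59 pair, are near copies of each other, so counts within a pair are uncertain.

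Between genotypes, 4 of 23 other complement genes were at least 1.5-fold higher and 2 lower in Cd226-/- than in WT fibroblast-like cells, beside 5.95% and 6.08% of all genes. Clu stood at 4.47 (4.03 to 4.97), Csmd1, a membrane inhibitor, at 2.15 (1.68 to 2.77), Itgam at 2.65 (1.53 to 4.75), and Hc at 12.5 (5.41 to 35.3) on 62 Cd226-/- and 6 WT UMIs. Macrophage RNA came to 0.124% of the RNA in Cd226-/- and 0.0973% in WT fibroblast-like cells. Its part in the Itgam values, here and against naive cells, was not tested. C6 stood at 0.534 (0.482 to 0.591) and Cd55 at 0.541 (0.523 to 0.559). In macrophage-like cells, 13 of the list were measured between genotypes: Fcna, the lectin ficolin A, was higher at 1.57 (1.38 to 1.80), and C2 was lower at 0.486 (0.281 to 0.827) and C6 at 0.663 (0.523 to 0.839), beside 4.8% of all genes higher and 3.84% lower. Exons of Gm20547 also cover 42.8% of the exonic bases of C2, so its count is uncertain. Against naive macrophage-like cells, 5 of 17 were lower and 0 higher in Cd226-/-, and 4 lower and 4 higher in WT cells, beside 17.8% lower and 10.2% higher of all genes in Cd226-/- and 18.0% and 9.1% in WT cells. C3ar1, the C3a receptor, was lower in both, at 0.534 in Cd226-/- and 0.584 in WT cells, as were Cd55 (0.445 and 0.314), Colec12 (0.526 and 0.412) and Cd59a (0.0689 and 0.373, on 1 and 4 UMIs). Vsig4, a macrophage receptor for C3 fragments, was lower in Cd226-/- cells at 0.630 (0.276 to 1.27). Higher in WT cells were C2 (1.91), C6 (1.52), Itgam (1.52) and C1rb (1.51).

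The pattern of each gene over 33 class-by-library units of at least 50 cells was compared with that of 11791 genes by Pearson's r of log2(CPM + 1), as a description, since units of a library share its depth and its free RNA. C1qb and C1qc were most alike among the members, at 0.99. The genes nearest to C1qa were Cd163 (0.95), Pf4 (0.94) and Clec10a (0.94), and Pf4 was also nearest to C1qb (0.97) and C1qc (0.96). Nearest to C3 were Igfbp6 (0.88), Tnfaip6 (0.84) and Fn1 (0.81), and nearest to Serping1 were Fstl1 (0.98), Fbn1 (0.98) and Bmp1 (0.98). C4b had Pdgfc (0.86), Gas6 (0.84) and Clmp (0.83), and Cfb had Mcfd2 (0.81), Nr1h3 (0.81) and P4ha1 (0.80). C5ar1 had Tlr13 (0.97), Cd300ld (0.96) and Hk3 (0.96), and Cfd, at or near 0 in most units, had A330102I10Rik (0.81), Adcy1 (0.69) and Car3 (0.69). C1qa ran against Serping1 at -0.68 and with C5ar1 at 0.73.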

How the data were processed

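The files hold UMI counts per gene and cell barcode, deposited by the authors as 1 matrix per library, made with Cell Ranger 3.1.0 on mm10 per the submitters' processing notes, with no normalization. They held 7991 barcodes (Cd226-/-), 8527 (WT), 5913 (naive CD45+) and 11875 (naive CD45-), with 71245703, 72606822, 42043869 and 81406730 gene UMIs. Antibody-tag features were not used. The 9 members and all gene lists were chosen with earlier results of these data known.

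A barcode was kept if it had 500 genes or more, 1000 UMIs or more and no more than 10% of its UMIs from mitochondrial genes. Doublets called by Scrublet in scanpy 1.11.5 were removed (2.41%, 2.36%, 5.01% and 5.38% in the order above); in the naive CD45+ library the caller marked only 9 cells, so the 5% with the highest scores (176 cells) were removed instead. Cells of all libraries were clustered together, split into immune and non-immune clusters by Ptprc, and clustered again within each (2000 variable genes without complement genes, 30 principal components, 15 neighbours, Leiden resolution 1.0) and named from marker lists, with limits set after the clusters had been seen. Counts were summed per class and library. A level is given for classes of at least 100 cells and for clusters with at least 50 cells of a library. The 78 naive CD45- macrophage-like and 70 naive monocyte-like cells are exceptions. A ratio is given for genes with at least 50 UMIs over the pair, except for Cfd without its 4 rich cells. A change of 1.5-fold counts as a call. Other complement genes were named as the 5 largest ratios each way past 1.5-fold, and genes of like pattern as the nearest 3; some genes under these rules are not reported here. Intervals are exact (Poisson for levels, conditional binomial for ratios, 95%) and cover counting error only. On simulated counts 198 of 200 genes changed 2-fold passed 1.5-fold in the macrophage-like comparison (7531 genes) and 200 of 200 in the fibroblast-like one (12404 genes). With 1 library per group the spread between mice could not be set in these counts, so the recovery says nothing of it. Alternatives changed the clustering, filters, scaling, count minimum and subtraction of RNA from other cells. Python 3.11.15, numpy 2.4.6, scipy 1.17.1 and pandas 2.3.3 were used.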

Additional observations from a re-analysis of the deposited data

Results flagged for a closer look

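Each value here is a log2 ratio of 2 libraries, given because the classes named with it went opposite ways in the same comparison by more than 1.5-fold. With 1 library per group these differences between classes were not tested, and the pairs of classes were picked as the highest and lowest of those measured.

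Between Cd226-/- and WT skin after DMBA/TPA, C1qa stood at 1.62 in lymphocyte-like and -1.004 in intermediate cells. C1qb stood at 2.19 in lymphocyte-like and -0.90 in Langerhans-like cells, and C1qc at 1.72 and -1.04 in the same classes. C4b stood at 0.66 in intermediate and -0.74 in Langerhans-like cells. Macrophage markers moved with C1q in lymphocyte-like and Langerhans-like cells, as given in the report.

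Between Cd226-/- treated and naive skin, the C1q chains were higher in fibroblast-like and lower in dendritic-like cells: C1qa at 0.74 and -2.48, C1qb at 1.56 and -2.39, and C1qc at 0.73 and -2.72. By the marker estimate, macrophage RNA carries more C1qa than was found in these fibroblast-like cells. The 8 macrophage markers summed to 666 CPM in Cd226-/- and 1219 CPM in naive dendritic-like cells. The part of macrophage RNA in these C1q values was not tested. C4b stood at 1.42 in fibroblast-like and -0.97 in lymphocyte-like cells, and Cfb at 1.53 in fibroblast-like and -1.94 in intermediate cells.

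Between WT treated and naive skin, C1qa stood at 0.82 in fibroblast-like and -1.16 in lymphocyte-like cells, C1qb at 1.25 and -1.88, and C1qc at 0.63 and -1.55. C3 stood at 2.13 in macrophage-like and -1.44 in endothelial-like cells. Cfb stood at 1.13 in fibroblast-like and -2.20 in intermediate cells. Serping1 stood at 3.44 in macrophage-like and -0.64 in endothelial-like cells. By the marker estimate, fibroblast RNA carries as much Serping1 as was found in these macrophage-like cells or more. Its part in the value was not tested.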

How the results depend on the processing

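The count of complement genes past 1.5-fold in fibroblast-like cells between Cd226-/- and WT skin was 0 under every setting run, and the macrophage-like count was 0 except with the libraries clustered one by one, where it was 2 (both lower), and with macrophage-like, intermediate and monocyte-like cells merged, where it was 4 (all lower). Against naive cells, macrophage-like cells were the least stable. The Cd226-/- count of 2 became 6 at a Leiden resolution of 2.0 and with the libraries clustered one by one (2 higher and 4 lower each), 4 with complement genes kept for clustering and with doublets kept and a mitochondrial limit of 20% (2 higher and 2 lower each), 1 with RNA of the other compartment subtracted, and 7 after merging (2 higher and 5 lower). The WT count of 2 became 3 at a Leiden resolution of 2.0 (2 higher and 1 lower), 4 with the libraries clustered one by one (2 higher and 2 lower), 1 after subtraction and 6 after merging (2 higher and 4 lower). In fibroblast-like cells the counts of 7 in Cd226-/- and 7 in WT cells became 4 and 4 after subtraction, which removed the C1q chains, and 5 and 5 under TMM scaling. A minimum of 20 instead of 50 UMIs and leaving out the richest cell kept each count within 1.5 times. Of 142 alternative values of members past 1.5-fold, 133 kept the call, 7 kept the direction under 1.5-fold and 0 reversed. The other 2, for Cfd without its 4 rich cells, had too few UMIs. The 142 hold only alternatives that left a value, so a call lost with its value is not among them. Serping1 of macrophage-like cells had 8 such values, against 9 for C3 there. Each C1q chain of fibroblast-like cells had 7, against 8 for C3 there. C3 of macrophage-like WT cells ranged from 3.01 to 11.1 times the naive level over these settings. None of the settings put treated fibroblast-like cells against those of the naive CD45+ library. Those 149 naive cells had 1921 CPM of C3, 658 CPM of C4b and 79.0 CPM of Cfb. WT fibroblast-like cells had 1745, 572 and 49.0 CPM, all lower, and Cd226-/- ones 2005, 697 and 64.6 CPM, lower for Cfb only. The class with the highest level was kept for 29 to 36 of 36 gene and library pairs under the 4 clusterings and filters tried. The cause of each shift was not tested. No paired analysis was possible because each group is 1 library and no test was run. One library per group, pooled mice, pooled naive genotypes, names rebuilt from markers and depth limit all of these values. Serping1 in immune classes rests on few UMIs, as does Cfb in immune classes other than macrophage-like and naive intermediate cells.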
